A study of Mus musculus with 16 samples.

Results

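The genes described here are 8 that carry growth signals to blood vessels: the secreted factors encoded by Vegfa, Pgf and Angptl4, the receptors encoded by Flt1, Kdr and Tie1, and the co-receptors encoded by Nrp1 and Nrp2. They were taken by symbol from a table of 49585 genes, with 1 row each, and were chosen by a measured value: Vegfa and Flt1 had been seen to be higher in unexposed knockout epidermis than in unexposed controls. For these 8 genes that contrast is therefore a description with no test. Epidermis, lifted from the skin by heat shock, came from hairless SKH-1 mice aged 8 to 12 weeks, and its RNA was sequenced. Controls carried K5Cre, a Cre recombinase under the keratin 5 promoter of basal keratinocytes, and knockouts lacked the transcription factor C/EBPβ (gene Cebpb), a loss that the design text limits to the epidermis. The labels do not spell out the knockout alleles. Mice of each genotype were left unexposed or were sampled 6 h after 100 mJ/cm2 of ultraviolet B (UVB), which gave 4 groups of 4 libraries. Nothing in the labels says whether the libraries of a group are separate animals, so p-values measure the spread between these samples, which may be technical.

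VEGF-A, the product of Vegfa, is a secreted factor that makes blood vessels grow and leak. It binds VEGFR2, the main signalling receptor of blood endothelial cells (gene Kdr), and VEGFR1 (gene Flt1), which binds it tightly, signals weakly and in a secreted form acts as a decoy. The epidermis has no vessels of its own, and keratinocytes are a known source of VEGF-A for the vessels of the dermis below. Hypoxia-inducible factors (HIF) are known to drive Vegfa.

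Levels are given as CPM, counts scaled to the normalized (TMM) library size. The libraries held 32983160 to 53255160 counts each. Cebpb lay between 155 and 319.7 CPM in the 8 control libraries and between 0.177 and 3.03 CPM in the 8 knockout libraries. The label of the tissue was checked on marker genes. The summed level of 7 suprabasal keratinocyte markers was 34984 to 74481 CPM over the 16 libraries, and that of 15 blood endothelial markers was 2.34 to 9.31 CPM, with Sox18 at 0 counts in every group. At equal depth, unexposed control libraries would show 18454 to 19929 genes and unexposed knockout libraries 18810 to 21155, while exposed control libraries would show 16987 to 19318 and exposed knockout libraries 19207 to 21538. Mitochondrial genes took 4.33% to 10.18% of counts in unexposed libraries, 5.24% to 9.65% in those of exposed controls and 5.44% to 5.99% in those of exposed knockouts. The part of these library differences in the results was not tested.

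The promoters of Vegfa, Flt1 and Kdr are shown because the ligand and its 2 receptors carry the comparisons that follow. They are bases upstream of the RefSeq start site in GRCm38.p6, read on the minus strand of the chromosome, where these genes lie. The bases are printed 5′ to 3′ with matches to a HIF core motif in capitals (in Flt1 as its reverse complement). Vegfa comes from chr17:46032378-46032627, Flt1 from chr5:147726012-147726261 and Kdr from chr5:75978459-75978705. The Kdr stretch, of 247 bases, ends a little short of its RefSeq start site at 75978455.
Vegfa: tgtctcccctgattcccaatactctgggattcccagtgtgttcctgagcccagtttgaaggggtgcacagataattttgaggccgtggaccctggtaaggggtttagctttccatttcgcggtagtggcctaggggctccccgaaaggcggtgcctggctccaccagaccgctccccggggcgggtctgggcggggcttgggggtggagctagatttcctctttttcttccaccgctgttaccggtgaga
Flt1: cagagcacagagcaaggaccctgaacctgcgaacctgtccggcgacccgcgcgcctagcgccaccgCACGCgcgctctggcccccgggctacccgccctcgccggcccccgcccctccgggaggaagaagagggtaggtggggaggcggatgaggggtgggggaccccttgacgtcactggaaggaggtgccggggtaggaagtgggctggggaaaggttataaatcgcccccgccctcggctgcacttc
Kdr: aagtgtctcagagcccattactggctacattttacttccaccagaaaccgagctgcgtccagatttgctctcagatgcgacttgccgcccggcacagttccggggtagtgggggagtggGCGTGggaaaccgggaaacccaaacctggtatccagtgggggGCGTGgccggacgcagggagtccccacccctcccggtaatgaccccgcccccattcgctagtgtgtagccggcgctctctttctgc
Windows of 300 bases, 250 before the start to 50 after it, were searched on both strands for the HIF cores ACGTG and GCGTG, the C/EBP patterns TTGCNNAA and TTNNGNAA and the AP-1 pattern TGANTCA. RefSeq gave a window for 7 of the 8 genes, and Angptl4 was the one without. GCGTG, which 32.4% of 32851 promoters hold, was found once in the windows of Flt1, Nrp1 and Pgf, on the minus strand of the window, and at 2 places in those of Kdr and Nrp2. The Vegfa window shown held no match to the 5 motifs. A second RefSeq window of Vegfa, at an internal start (chr17:46025114-46025413), held ACGTG at -211, GCGTG at -218 and TTNNGNAA at -14 from its start. Among all promoters 19.6% hold ACGTG, 10.8% TTGCNNAA, 40.7% TTNNGNAA and 7.81% TGANTCA. The Tie1 window and a second window of Pgf held none of the 5. GC content was 62.0% in the Vegfa window, 70.7% in that of Flt1 and 60.7% in that of Kdr, against a median of 52.7% over all promoters. A match is a description of the letters and not a bound site.

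Vegfa (ENSMUSG00000023951, chromosome 17, 46016993 to 46032369, minus strand, GRCm38, 8 exon blocks) was the most abundant of the 8 genes per kilobase of exon in every group, and both knockout and UVB went with more of it. Unexposed control libraries 1 to 4 held 41.3, 27.3, 23.8 and 15.7 CPM, and unexposed knockout libraries 103, 85.8, 62.4 and 47.1 CPM. After UVB, control libraries held 58.4, 66.0, 52.9 and 57.9 CPM, and knockout libraries 123, 134, 139 and 114 CPM. No knockout library overlapped the controls of the same exposure, and no exposed library overlapped the unexposed ones of its genotype. The unexposed means were 27.0 ± 10.7 CPM (SD, n = 4) in controls and 74.4 ± 24.6 CPM (n = 4) in knockouts, a 2.76-fold difference (log2 fold change 1.46, SE 0.24), which is given without a test. The exposed libraries are not those in which Vegfa and Flt1 were noticed. Earlier results of these data were, however, known when the genes were chosen. The exposed means were 58.8 ± 5.39 CPM in controls and 127 ± 11.2 CPM in knockouts. Vegfa rose 2.17-fold in exposed knockouts (log2 fold change 1.12, SE 0.24, edgeR adjusted p = 0.0111), and leaving out any one exposed library kept the call (adjusted p 0.0144 to 0.048). In bulk tissue, fewer cells of a type and less RNA per cell cannot be told apart.

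UVB raised Vegfa in both genotypes. It rose 2.18-fold in controls (log2 fold change 1.12, SE 0.24, edgeR adjusted p = 0.00109) and 1.71-fold in knockouts (log2 fold change 0.78, SE 0.24, adjusted p = 0.0161). The call in knockouts ended without unexposed knockout library 3 (log2 fold change 0.70, adjusted p = 0.054) or 4 (0.56, adjusted p = 0.0885). Both UVB contrasts use the unexposed libraries in which Vegfa and Flt1 were first noticed. The log2 difference between the responses of knockouts and controls was -0.35 (SE 0.33, approximate 95% interval -1.0 to 0.31, edgeR adjusted p = 0.935).

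**Figure D1:**
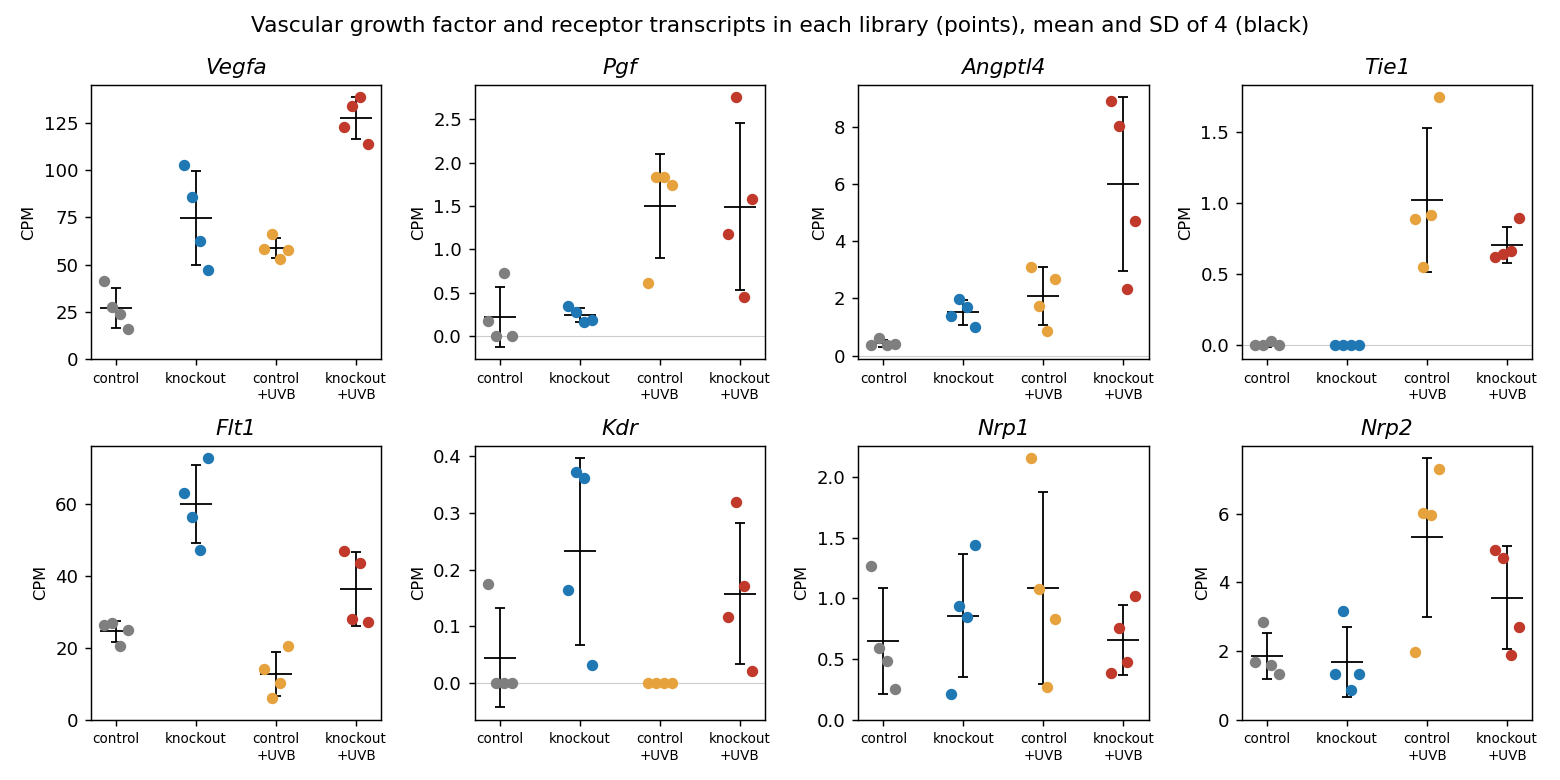
Level in CPM (vertical axis, linear, one scale per gene) of each of the 8 genes in each library, with points for libraries, horizontal lines for group means and bars for the SD of 4. Vegfa runs from 27.0 CPM in unexposed controls to 127 CPM in exposed knockouts, Flt1 is highest in unexposed knockouts at 60.0 CPM, and Tie1 is at or near 0 in the unexposed groups.

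Pgf (ENSMUSG00000004791, chromosome 12, 85166635 to 85177790, minus strand) encodes placental growth factor, which binds VEGFR1 and not VEGFR2. Its levels were low. Counts in libraries 1 to 4 were 8, 0, 24 and 0 for unexposed controls and 21, 16, 8 and 6 for unexposed knockouts, then 22, 80, 60 and 50 for exposed controls and 61, 146, 24 and 74 for exposed knockouts. The exposed knockouts all lay above the unexposed ones in CPM, and exposed control library 1 (0.61 CPM) lay below unexposed control library 3 (0.728 CPM). Pgf entered the test through the exposed groups, where it was high (the 2 unexposed groups alone had too few counts), so its p-values for UVB are given as a description. The rise with UVB passed the test in controls (6.79-fold, log2 fold change 2.76, SE 1.05, edgeR adjusted p = 0.0443). That call ended without unexposed control library 1, 2 or 4 or exposed control library 2, 3 or 4 (highest adjusted p 0.0964). In knockouts the log2 difference was 2.59 (SE 1.03, edgeR adjusted p = 0.0597, DESeq2 adjusted p = 0.0181, limma voom adjusted p = 0.0458), so the call depended on the tool. It was also made without exposed knockout library 3 (edgeR adjusted p = 0.0455). Between genotypes after UVB the log2 difference was -0.01 (SE 0.96, edgeR adjusted p = 0.998).

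The list of VEGF ligands held 5 genes, Vegfa and Pgf among them, and all 5 were tested. After UVB 1 of the 5, Vegfa, rose in knockouts, where 2.36% of the 17741 tested genes rose and 2.32% fell (4.68% in all). The median log2 difference of the list was 0.31, against 0.04 over all tested genes. That median was the value of Vegfc alone (SE 1.56), a gene at 0.0761 CPM in exposed controls and 0.094 CPM in exposed knockouts. With UVB, 2 rose (Vegfa and Pgf) and 2 fell in controls, against backgrounds of 17.7% of tested genes higher and 18% lower (35.8% in all). Pgf had enough counts only through the exposed groups, so its call adds nothing to this count. In knockouts 1 rose and 1 fell, against 18.1% higher and 14.1% lower (32.2% in all). The list medians were -0.45 in controls (all genes -0.02) and -0.61 in knockouts (all genes 0.01). These were again single values, of Vegfc in controls (SE 1.56) and of Vegfb in knockouts (SE 0.39). Vegfb, whose product binds VEGFR1, fell from 5.47 to 2.05 CPM in controls (log2 fold change -1.41, SE 0.40, edgeR adjusted p = 0.00837) and went from 5.54 to 3.64 CPM in knockouts (adjusted p = 0.267). Vegfd, a ligand of the lymphatic receptor VEGFR3, fell from 13.5 to 6.86 CPM in controls (-0.97, SE 0.35, adjusted p = 0.0329) and from 16.2 to 5.71 CPM in knockouts (-1.50, SE 0.35, adjusted p = 0.00214). Vegfc held at most 0.23 CPM in the group means.

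Flt1 (ENSMUSG00000029648, chromosome 5, 147561604 to 147726011, minus strand, 33 exon blocks), the gene of VEGFR1, was higher in knockouts at both exposures and lower after UVB in both genotypes. Counts per gene do not separate the secreted decoy form of VEGFR1 from the rest. Unexposed control libraries 1 to 4 held 26.5, 26.9, 20.5 and 24.9 CPM, and unexposed knockout libraries 63.3, 56.5, 47.4 and 73.0 CPM. After UVB, control libraries held 14.2, 6.18, 10.3 and 20.5 CPM, and knockout libraries 46.9, 28.2, 43.6 and 27.2 CPM. The groups did not overlap in any of these 4 comparisons, although exposed control library 4 and unexposed control library 3 both read 20.5 CPM when rounded. The unexposed means were 24.7 ± 2.93 CPM (SD, n = 4) in controls and 60.0 ± 10.8 CPM (n = 4) in knockouts, a 2.43-fold difference (log2 fold change 1.28, SE 0.27), given without a test.

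After UVB, Flt1 rose 2.86-fold in knockouts against controls, from 12.8 ± 6.08 to 36.5 ± 10.2 CPM (log2 fold change 1.52, SE 0.27, edgeR adjusted p = 0.00363), and leaving out no single exposed library ended the call (adjusted p 0.000451 to 0.0181). UVB lowered Flt1 1.94-fold in controls (log2 fold change -0.95, SE 0.27, edgeR adjusted p = 0.00964) and 1.65-fold in knockouts (log2 fold change -0.72, SE 0.27, adjusted p = 0.0461). The fall in knockouts was no longer called without unexposed knockout library 1, 2 or 4 or exposed knockout library 2 or 4 (adjusted p up to 0.137). Both UVB contrasts of Flt1 use the unexposed libraries in which it was first noticed. In knockouts, its choice for a high unexposed level favours a fall. For the difference between the 2 responses the log2 value was 0.23 (SE 0.38, approximate 95% interval -0.51 to 0.97, edgeR adjusted p = 0.965). Vegfa and Flt1 were thus both higher in exposed knockouts, while with UVB Vegfa rose and Flt1 fell.

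Kdr (ENSMUSG00000062960, chromosome 5, 75932827 to 75978458, minus strand), which encodes the signalling receptor VEGFR2, had too few counts for the test. Unexposed controls held 8, 0, 0 and 0 counts, unexposed knockouts 10, 21, 18 and 1, the 4 exposed controls none, and exposed knockouts 6, 17, 9 and 1. Against a floor of 3 counts per library, its level was at least 1.81-fold higher in exposed knockouts (33 counts) than in exposed controls. The unexposed totals of 50 and 8 counts gave a ratio of 5.51 (95% counting interval 2.59 to 13.5, counting error only), as a description. Library 4 of each knockout group held 1 count. Flt1 and Kdr could not be set against each other within a library with any precision. With 0.05 CPM added to both genes, the log2 difference of Flt1 over Kdr between exposed knockouts and controls was -0.22 (exact two-sided permutation test, adjusted p = 0.686), and with 0.5 CPM added it was 1.18 (adjusted p = 0.0857), so its direction depended on this choice.

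The co-receptors bind VEGF-A as well as class 3 semaphorins. Nrp2 (ENSMUSG00000025969, chromosome 1, 62703285 to 62818695, plus strand) read 1.67, 2.85, 1.58 and 1.33 CPM in unexposed controls and 1.97, 6.02, 5.97 and 7.30 CPM after UVB. It thus rose 2.86-fold with UVB in controls (log2 fold change 1.52, SE 0.47, edgeR adjusted p = 0.0155), although exposed library 1 lay within the unexposed range, and the call ended without unexposed control library 4 (adjusted p = 0.0513). In knockouts it read 1.34, 3.17, 0.865 and 1.34 CPM unexposed and 4.95, 4.71, 1.88 and 2.69 CPM after UVB (log2 difference 1.08, SE 0.47, adjusted p = 0.085, and 0.018 without unexposed knockout library 2). Its log2 difference between exposed genotypes was -0.58 (SE 0.46, adjusted p = 0.537). Nrp1 (ENSMUSG00000025810, chromosome 8, 128358604 to 128503363, plus strand) stayed between 0.212 and 2.16 CPM over the 16 libraries, with overlapping groups throughout. Its log2 differences were -0.72 between exposed genotypes (SE 0.75, adjusted p = 0.659), 0.74 with UVB in controls (adjusted p = 0.492) and -0.37 with UVB in knockouts (adjusted p = 0.773).

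Of the 5 genes in the list of VEGF receptors and co-receptors, 3 had enough counts to be tested. Kdr and Flt4, the gene of VEGFR3, did not, and Flt4 held at most 0.0717 CPM in the group means. Flt1 was the 1 that rose in exposed knockouts, where 2.36% of all tested genes rose. The list's median log2 difference there was -0.58, the value of Nrp2 alone (SE 0.46). With UVB, Nrp2 rose and Flt1 fell in controls (median 0.74), and Flt1 fell in knockouts (median -0.37). Both of these medians were the values of Nrp1 alone (SE 0.75 in each). The shares of all tested genes were 17.7% higher and 18% lower in controls, and 14.1% lower in knockouts.

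Flt1 was set beside the markers of the blood endothelium, since that is where the receptor is best known. The sum of the 15 markers ranged from 2.34 to 6.47 CPM over the unexposed control libraries and from 6.07 to 9.31 over the unexposed knockout libraries. After UVB it ranged from 3.07 to 5.53 CPM over control and from 4.44 to 6.32 over knockout libraries. Flt1 alone exceeded this sum in every library. The defining gene Cdh5, for VE-cadherin, had 0 counts in both control groups and a mean of at most 0.0265 CPM in the knockouts. Cldn5, Egfl7, Robo4 and Sox18 were at 0 in unexposed controls, Cldn5, Robo4 and Sox18 in unexposed knockouts, Emcn, Egfl7, Robo4, Sox17 and Sox18 in exposed controls, and Egfl7, Sox17 and Sox18 in exposed knockouts. Pecam1 and Vwf had the highest means of the 15 in every group, with Pecam1 at 1.38, 1.62, 2.29 and 0.977 CPM in the means of unexposed controls, unexposed knockouts, exposed controls and exposed knockouts. Of the 8 markers tested, none passed between genotypes, with a median log2 difference of 1.69 after UVB. That median lies between Ecscr (1.64, SE 1.28) and Esam (1.74, SE 1.84), whose group means were at most 0.399 CPM. Of the better counted markers, Pecam1 was lower in exposed knockouts (-1.22, SE 0.53) and Vwf higher (1.37, SE 0.62). Vwf fell with UVB in controls (log2 fold change -2.16, edgeR adjusted p = 0.0103), where the median was -0.89, and none passed with UVB in knockouts (median 0.01). The medians with UVB also lie between Ecscr and Esam.

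Divided by the summed endothelial markers, Flt1 gave ratios of 3.53, 2.01, 3.36 and 3.70 in exposed control libraries and 10, 6.14, 6.89 and 6.13 in exposed knockout libraries. These did not overlap, and the log2 difference was 1.22 (exact two-sided permutation test, p = 0.0286, the smallest that 4 against 4 allows, adjusted p = 0.0429 over 3 comparisons). In unexposed controls the ratios were 4.09, 4.73, 8.78 and 4.18, and the log2 difference with UVB was -0.75 (exact p = 0.0286, adjusted p = 0.0429). Unexposed knockouts gave 9.72, 8.06, 7.80 and 7.84, and their log2 difference with UVB was -0.22 (exact p = 0.286, adjusted p = 0.286). The calls depended on single libraries. Without exposed control library 2 the genotype difference was 1.02 (exact adjusted p = 0.0857) and the UVB difference in controls -0.55 (exact adjusted p = 0.129), and without unexposed control library 3 the latter was -0.50 (exact adjusted p = 0.0857). Without exposed knockout library 1 the UVB difference in knockouts was -0.38 (exact adjusted p = 0.0286). The size of the differences depended on the markers. Over Pecam1, Cdh5 and Emcn alone the log2 differences were 2.79 between exposed genotypes (exact adjusted p = 0.0429), -1.87 with UVB in controls (exact adjusted p = 0.0429) and -0.02 with UVB in knockouts (exact adjusted p = 0.971). Cdh5 and Emcn were at 0 in exposed controls and had means of at most 0.0265 and 0.128 CPM in the other groups. This sum was therefore mostly or only Pecam1, and does not stand for several endothelial markers.

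Tie1 (ENSMUSG00000033191, chromosome 4, 118471191 to 118490061, minus strand), which encodes an orphan receptor that modulates angiopoietin signalling through Tie2, was detected almost only after UVB. Unexposed controls held 0, 0, 1 and 0 counts and unexposed knockouts none. Exposed controls held 32, 24, 30 and 50 counts (0.887, 0.549, 0.913 and 1.74 CPM) and exposed knockouts 32, 34, 35 and 42 counts (0.619, 0.641, 0.666 and 0.896 CPM). Every exposed library thus lay above every unexposed one. Tie1 entered the test only through the exposed groups, so a difference with UVB was built into its selection, and the p-values for UVB are given as a description. In controls 136 counts against 1 gave a ratio of 169 (95% counting interval 29.9 to 6734, edgeR adjusted p = 0.000391), and in knockouts the level was at least 11-fold higher (143 counts against a floor of 3 per library, adjusted p = 0.000228). Between exposed genotypes the log2 difference was -0.53 (SE 0.91, adjusted p = 0.815). None of the 8 tested blood endothelial markers rose with UVB in either genotype. Protein-coding genes near Tie1 were read as well. Tmem125, upstream on the same strand, rose by 1.02 in controls (log2, adjusted p = 0.000194) and by 1.39 in knockouts (adjusted p = 9.94e-06), with 2610528J11Rik lying between it and Tie1 at log2 differences of -0.09 and 0.11 (adjusted p = 0.834 and 0.806). Whether reads from neighbours reach the Tie1 count was not tested.

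Among 10 genes of the angiopoietin and Tie axis, 9 were tested and none passed between genotypes after UVB (median log2 difference 0.65, all genes 0.04). With UVB, Tie1, which was tested only because of its exposed counts, and Angptl4 rose in both genotypes. Angptl7 fell in controls from 28 counts (0.185 ± 0.248 CPM, SD) to 0, at least 2.13-fold (edgeR adjusted p = 0.0379). With no counts in exposed controls, it entered the test only through other groups, so that p-value is a description too. The medians of the list were -0.70 in controls and -0.81 in knockouts, the same with Tie1 and Angptl7 at their bounds. Among all tested genes 17.7% rose and 18% fell with UVB in controls, and 18.1% rose and 14.1% fell in knockouts. Tek, the gene of Tie2 itself, held means of 0.423, 1.15, 1.28 and 0.52 CPM in unexposed controls, unexposed knockouts, exposed controls and exposed knockouts and did not pass (adjusted p 0.0901 with UVB in controls, 0.246 in knockouts). The ligand genes Angpt1 and Angpt2 stayed at or below 1.05 CPM in the group means.

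Angptl4 (ENSMUSG00000002289, chromosome 17, 33773750 to 33781830, minus strand) encodes a secreted inhibitor of lipoprotein lipase that also acts on vessels and is a known target of PPAR and HIF factors. It read 0.373, 0.612, 0.364 and 0.400 CPM in unexposed controls and 1.37, 1.98, 1.69 and 1.00 CPM in unexposed knockouts, 3.44-fold higher with no overlap (log2 fold change 1.78, SE 0.48, description only). After UVB, controls read 3.10, 1.74, 0.852 and 2.68 CPM and knockouts 8.88, 8.03, 2.32 and 4.69 CPM. Knockout library 3 lay below control libraries 1 and 4. The genotype difference after UVB did not pass with edgeR (2.86-fold, log2 1.51, SE 0.46, adjusted p = 0.0622) and passed with DESeq2 (adjusted p = 0.0217), and with edgeR when knockout library 3 was left out (adjusted p = 0.0375). Angptl4 rose with UVB by 4.76-fold in controls (log2 fold change 2.25, SE 0.49, edgeR adjusted p = 0.00101, limma voom adjusted p = 0.0629) and by 3.94-fold in knockouts (1.98, SE 0.47, adjusted p = 0.00229), with no overlap in either.

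The list of PPAR targets and related genes read beside Angptl4 moved both ways. Besides targets it holds the receptor genes Ppara, Ppard and Pparg and the lipase-related genes Lmf1 and Gpihbp1. Of 14 genes 13 were tested, and Gpihbp1 had 0 counts throughout. In exposed knockouts 1 rose and 2 fell, against 2.36% and 2.32% of all tested genes (median log2 difference -0.12, all genes 0.04). Cpt1a, for mitochondrial fatty acid import, rose by 0.74 (SE 0.19, edgeR adjusted p = 0.0314). Lpl, the lipase that ANGPTL4 inhibits, fell by 2.31 (SE 0.54, edgeR adjusted p = 0.0217) from 16.3 ± 12.0 to 3.28 ± 1.76 CPM (SD). The summed adipocyte markers were 9.73 to 40.5 CPM in exposed controls and 1.07 to 20.3 CPM in exposed knockouts. Their part in Lpl was not tested. With UVB, 4 rose and 4 fell in each genotype (medians 0.71 and 0.42). Over all tested genes 17.7% rose and 18% fell in controls, and 18.1% rose and 14.1% fell in knockouts. The receptor gene Ppard rose by 0.85 in controls (adjusted p = 9.26e-05) and 0.80 in knockouts (adjusted p = 0.000191), and Lmf1, a lipase maturation factor gene, fell by 1.81 (adjusted p = 2.89e-05) and 1.57 (adjusted p = 0.00013). In unexposed knockouts none of the 13 passed, where 0.964% of the tested genes rose and 1.14% fell (2.1% in all).

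**Figure D2:**
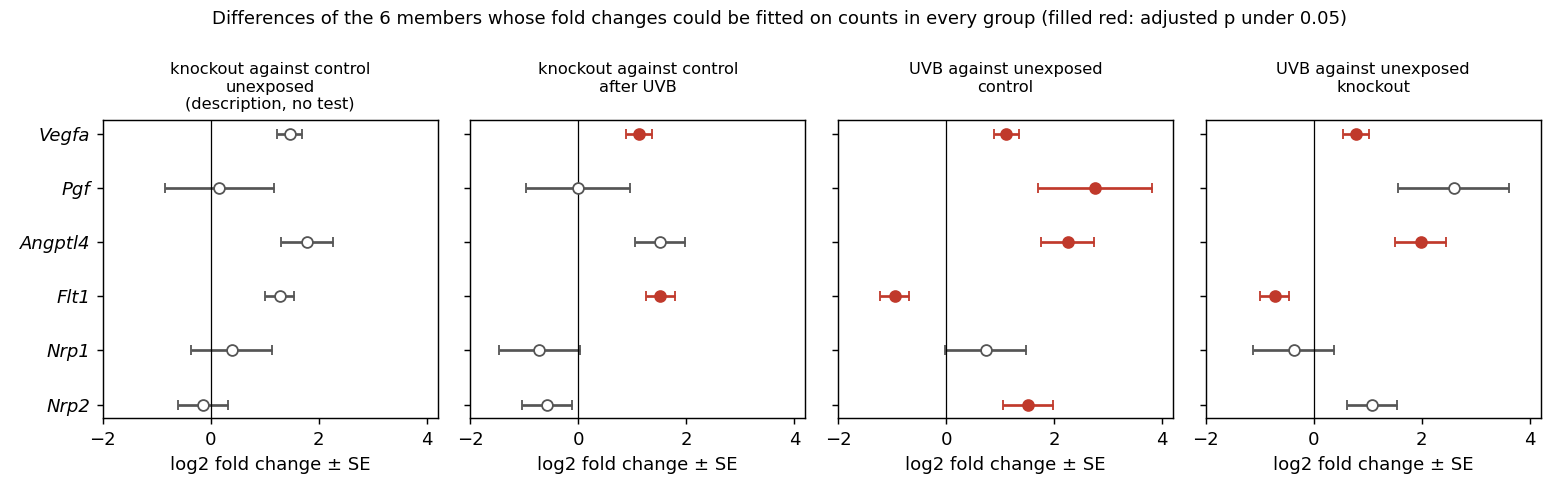
Log2 fold changes with SE (horizontal axis) of 6 of the genes in 4 comparisons, with filled red points for adjusted p under 0.05. Tie1 is left out because its unexposed groups were at or near 0, and Kdr because it was not tested. In knockouts against controls after UVB, Vegfa and Flt1 lie at 1.12 and 1.52, and in the 2 panels of UVB against unexposed they lie on opposite sides of 0.

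Of the 7 genes tested, 2 rose in exposed knockouts (Vegfa and Flt1) and none fell, against 2.36% and 2.32% of all tested genes. These 2 are the genes first noticed as higher in unexposed knockouts, so this count is a description. With UVB in controls 5 rose (Vegfa, Nrp2, Pgf, Tie1 and Angptl4) and 1 fell (Flt1), and with UVB in knockouts 3 rose (Vegfa, Tie1 and Angptl4) and 1 fell (Flt1). Tie1 and Pgf had enough counts only through the exposed groups, so their calls add nothing to these counts. Between 14.1% and 18.1% of all tested genes moved in each direction with UVB. None of the 7 passed for the difference between the UVB responses (edgeR), and their lowest unadjusted p was 0.273, so none had an unadjusted p under 0.05. Their DESeq2 adjusted p there was 0.93 to 0.999 and that of limma voom 0.784 to 0.985. Over all 17741 genes that test called 0%, with 1043 genes at an unadjusted p under 0.05, against 31 calls by DESeq2 and 0 by limma voom.

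Per kilobase of exon, Vegfa led in every group without overlapping the next gene, with 6.31 ± 2.49 CPM per kb (SD, n = 4) in unexposed controls, 17.4 ± 5.74 in unexposed knockouts, 13.7 ± 1.26 in exposed controls and 29.8 ± 2.61 in exposed knockouts. Flt1 was second in every group, at 1.83 ± 0.217, 4.45 ± 0.799, 0.947 ± 0.45 and 2.7 ± 0.758 CPM per kb in the same order. It stood clear of the third gene in the unexposed groups only. In exposed controls the order went on from Flt1 to Angptl4, Pgf, Nrp2, Tie1 and Nrp1, with every neighbouring pair overlapping, and Kdr was last at 0. In exposed knockouts the order was the same, and neighbours overlapped from Flt1 down to Tie1 (0.143 CPM per kb), while Tie1 and Nrp1 (0.0675 CPM per kb) did not. In unexposed controls the levels from Nrp2 (0.157) through Angptl4 (0.124) and Pgf (0.0778) to Nrp1 (0.0665 CPM per kb) each overlapped the next, and Kdr and Tie1 were last. In unexposed knockouts Angptl4 (0.427) stood above Nrp2 (0.142), Nrp1 (0.0877) and Pgf (0.0839 CPM per kb), which overlapped in turn, and Tie1 was last at 0.

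Some markers of basal keratinocytes rose in knockouts, as Vegfa did after UVB. The 7 markers summed to 2711, 2129, 1853 and 2424 CPM in unexposed control libraries and 6552, 4809, 3952 and 2797 in unexposed knockout libraries. After UVB they summed to 2895, 3936, 1921 and 1846 CPM in controls and 4558, 5698, 6285 and 6496 in knockouts. Krt14 was its largest part, with means of 916, 2594, 1728 and 4172 CPM in unexposed controls, unexposed knockouts, exposed controls and exposed knockouts. In unexposed knockouts 2 of the 7 rose, against 0.964% of all tested genes, and none fell (median log2 difference 0.43, all genes 0.0). In exposed knockouts 4 rose, against 2.36% of all tested genes, and none fell (median 0.60, all genes 0.04), among them Krt5 (1.14, edgeR adjusted p = 0.00641) and Col17a1 (0.67, adjusted p = 0.00428). With UVB none rose, 3 fell in controls and 1 in knockouts (medians -0.32 and -0.14), where 18% and 14.1% of all tested genes fell.

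A ratio of Vegfa to these markers was added after this was seen. Over the sum, the log2 difference between exposed knockouts and controls was -0.06 (exact two-sided permutation test, p = 0.8). Over the mean log2 level of the 7, in which Krt14 weighs no more than the others, it was 0.38 with no overlap (exact p = 0.0286, adjusted p = 0.0286 over 3 comparisons). With UVB in controls the values were 1.04 over the sum (exact p = 0.0286, adjusted p = 0.0857) and 1.61 over the mean log2 level (exact adjusted p = 0.0286). In knockouts they were 0.43 (exact p = 0.0571, adjusted p = 0.0857) and 1.00 (exact adjusted p = 0.0286). For Flt1 the genotype values were 0.42 (exact p = 0.6) and 0.86 (exact p = 0.143, adjusted p = 0.171). The genotype difference of Vegfa relative to basal markers therefore depended on how the markers were summarised.

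**Figure D3:**
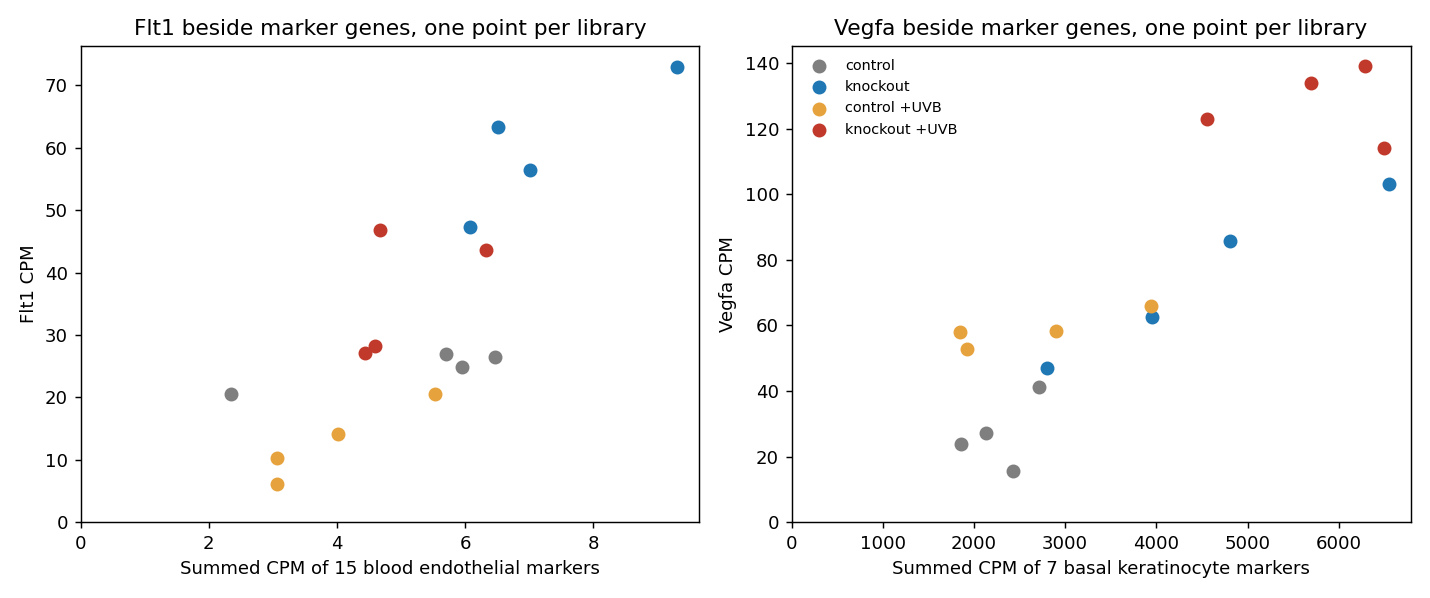
Left, Flt1 in CPM against the summed CPM of 15 blood endothelial markers, and right, Vegfa in CPM against the summed CPM of 7 basal keratinocyte markers, with one point per library coloured by group and linear axes from 0. Flt1 of exposed knockouts (27.2 to 46.9 CPM) lies above that of exposed controls (6.18 to 20.5 CPM) over an overlapping range of endothelial sums, and the exposed knockouts have both the 4 highest Vegfa levels and basal sums above all controls.

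Genes of the hypoxia pathway and HIF targets were examined because Vegfa is one, and all 25 listed were tested (Vegfa is not in the list). In exposed knockouts 6 rose and none fell, against 2.36% and 2.32% of all tested genes, and the median log2 difference was 0.57 (all genes 0.04). The 3 with the smallest p were the HIF prolyl hydroxylase gene Egln3 (0.74, SE 0.15, edgeR adjusted p = 0.00635), the collagen prolyl hydroxylase gene P4ha2 (1.62, SE 0.33, adjusted p = 0.00702) and Ankrd37 (1.02, SE 0.21, adjusted p = 0.00702). The other 3, named after their values were seen, were the glucose transporter gene Slc2a1 (1.21, adjusted p = 0.00975), the pyruvate dehydrogenase kinase gene Pdk1 (1.16, adjusted p = 0.0146) and Hif1a (0.69, adjusted p = 0.0471). Egln3 read 155 ± 15.7 CPM (SD, n = 4) in exposed controls and 259.8 ± 54.8 CPM in exposed knockouts. In unexposed knockouts 4 rose and 1 fell, against 0.964% and 1.14% of all tested genes (median 0.41, all genes 0.0), and Ankrd37 (0.93, adjusted p = 0.0201), the hexokinase gene Hk2 (0.85, adjusted p = 0.0311) and Egln3 (0.62, adjusted p = 0.0321) had the smallest p.

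With UVB the hypoxia list moved both ways while Vegfa rose. In controls 4 rose and 10 fell, against 17.7% of all tested genes higher and 18% lower (median -0.19, all genes -0.02). Pdk1 fell by 2.06 (SE 0.27, edgeR adjusted p = 5.7e-06), P4ha2 fell by 2.43 (SE 0.34, adjusted p = 9.74e-06), and Pfkfb4, a regulator of glycolysis, rose by 1.07 (SE 0.15, adjusted p = 1.51e-05). In knockouts 5 rose and 6 fell, against 18.1% higher and 14.1% lower (median -0.10, all genes 0.01). Pfkfb4 rose by 0.82 (adjusted p = 0.000265), and the prolyl hydroxylase genes Egln1 (-1.23, adjusted p = 0.000511) and Egln3 (-0.63, adjusted p = 0.00208) fell. None of the 25 passed for the difference between the responses by edgeR.

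**Figure D4:**
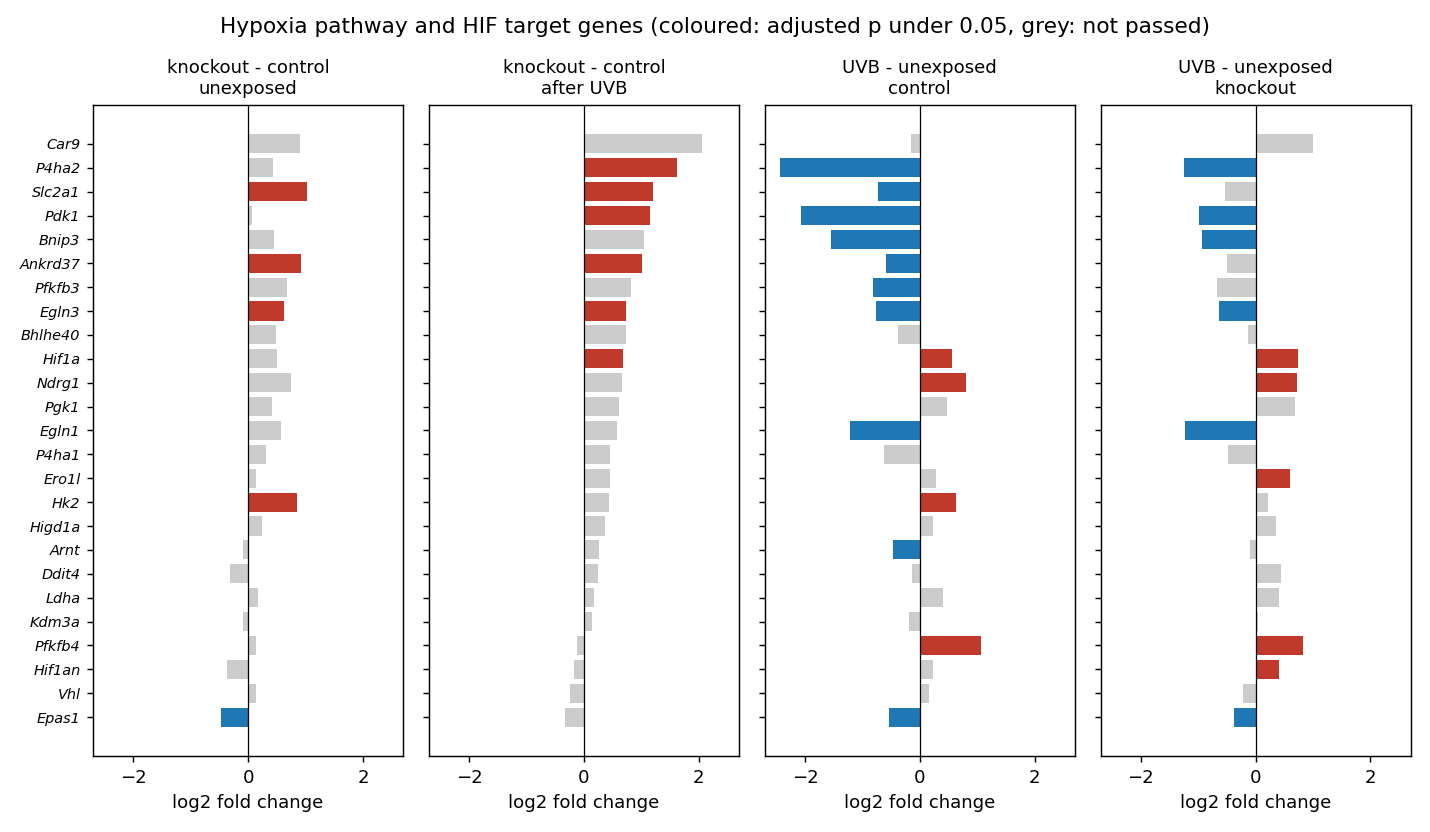
Log2 fold change (horizontal axis) of 25 hypoxia pathway and HIF target genes in 4 comparisons, ordered by the genotype difference after UVB, with red bars for rises and blue bars for falls at adjusted p under 0.05 and grey bars for genes that did not pass. After UVB 6 bars are red and none blue in knockouts against controls, and with UVB in controls 4 are red and 10 blue.

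The semaphorins and plexins share the neuropilins with VEGF-A. Of 12 genes 11 were tested, and none passed in unexposed knockouts. In exposed knockouts 1 fell, against 2.32% of all tested genes (median 0.34, all genes 0.04). That was Sema3e, whose product repels vessels through plexin D1, at 12.3 ± 1.82 CPM (SD, n = 4) in exposed controls and 4.46 ± 0.881 CPM in exposed knockouts (log2 fold change -1.47, SE 0.32, edgeR adjusted p = 0.0124). With UVB, 1 rose and 3 fell in controls (median -0.56), and none rose and 3 fell in knockouts (median -0.36). The falls stand against 18% of all tested genes in controls and 14.1% in knockouts, and the rises against 17.7% and 18.1%. Sema3d had the smallest p in both genotypes and fell from 147 to 46.3 CPM in controls (-1.67, SE 0.21, adjusted p = 3.61e-06) and from 131 to 34.3 CPM in knockouts (-1.94, SE 0.21, adjusted p = 1.19e-06). Sema3f (-0.56, adjusted p = 0.000541) and Plxna3 (-0.62, adjusted p = 0.0266) were next in controls, and Plxna3 (-0.88, adjusted p = 0.00282) and Plxna2 (-0.54, adjusted p = 0.0111) in knockouts.

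Of 16 other vascular growth factor genes 13 were tested, and none passed between exposed genotypes (median -0.15, all genes 0.04). In unexposed knockouts 1 rose, the vasodilator peptide gene Adm (2.07, SE 0.49, edgeR adjusted p = 0.0292), against 0.964% of all tested genes. With UVB, 4 rose and 3 fell in controls (median -0.19), and 3 rose and 2 fell in knockouts (median -0.27). The shares of all tested genes were 17.7% higher and 18% lower in controls, and 18.1% higher and 14.1% lower in knockouts. Fgf1 rose by 2.68 in controls (SE 0.26, adjusted p = 1.72e-07), from 2.61 to 16.7 CPM, and by 1.65 in knockouts (SE 0.25, adjusted p = 4.05e-05), from 3.28 to 10.3 CPM. Ccn1, a matrix protein gene that responds early to growth stimuli, rose by 3.08 in controls (adjusted p = 7.74e-06). Pdgfb fell by 1.41 (adjusted p = 1.57e-05) and 1.13 (adjusted p = 0.000183), and Pdgfa by 0.88 in knockouts (adjusted p = 0.000145).

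Of 12 genes for inhibitors of vessel growth 10 were tested. In exposed knockouts 2 rose and none fell, against 2.36% and 2.32% of all tested genes (median 0.65, all genes 0.04). Thbs1, for thrombospondin-1, rose by 1.32 (SE 0.30, edgeR adjusted p = 0.014), from 4.93 to 12.4 CPM, and Cxcl10, an interferon-induced chemokine gene, by 4.26 (SE 1.08, adjusted p = 0.0299), from 0.27 to 5.32 CPM. In unexposed knockouts 1 of the 10, Thbs1, rose (1.57, SE 0.30, edgeR adjusted p = 0.00661), against 0.964% of all tested genes. The list median there was 0.45. With UVB, 2 rose and 2 fell in controls (median -0.54), and 1 rose and 1 fell in knockouts (median 0.05). Over all tested genes 17.7% rose and 18% fell in controls, and 18.1% rose and 14.1% fell in knockouts. Adamts1, a protease with anti-angiogenic domains, rose by 2.73 (SE 0.27, adjusted p = 2.79e-07) and 2.39 (SE 0.26, adjusted p = 1.66e-06), and Thbs1 fell by 1.38 (adjusted p = 0.00112) and 1.63 (adjusted p = 0.000241), in controls and knockouts respectively. Timp3 rose by 0.89 in controls (adjusted p = 0.00413).

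The other marker lists were read for cells that could add RNA for these genes. After UVB, when 2.36% of all tested genes rose and 2.32% fell in knockouts, there was a rise in 5 of 7 Langerhans cell markers (median log2 difference 0.90), 2 of 6 tested macrophage and monocyte markers (0.64), 1 of 7 fibroblast markers, Postn (0.31, Thy1 standing in this and the T cell list), and no pericyte and smooth muscle (of 6, 0.18), lymphatic endothelial (of 4, -0.78), neutrophil (of 3, -1.14), T cell (of 7, 0.37), adipocyte (of 2, -1.69) or erythroid marker (of 3, -0.62). Of 6 suprabasal keratinocyte markers 2 were lower (median -0.40). The summed Langerhans markers were 671 to 834 CPM in libraries of exposed controls and 839.8 to 1057 CPM in those of exposed knockouts, and the macrophage and monocyte markers 122 to 187 and 191 to 263 CPM. In unexposed knockouts 1 macrophage, 1 neutrophil, 1 Langerhans and 1 fibroblast marker rose, against 0.964% of all tested genes. With UVB, 17.7% of all tested genes rose and 18% fell in controls, and 18.1% rose and 14.1% fell in knockouts. Of the 7 T cell markers 1 fell in controls and 3 rose in knockouts. Of the 6 macrophage and monocyte markers 1 rose in controls and 2 in knockouts, and Cd68 rose in both (2.53, edgeR adjusted p = 2.66e-08, and 2.37, adjusted p = 1.1e-07). Of the other lists, 1 Langerhans marker rose and 1 fibroblast marker fell in each genotype, 1 pericyte and smooth muscle marker rose in knockouts, and 1 suprabasal marker fell in controls and 2 in knockouts. The neutrophil list, carried by S100a8 and S100a9, which keratinocytes also make, had 3 of 3 higher in controls and 2 of 3 in knockouts, while Ly6g, Mmp8, Camp and Retnlg held at most 0.0766 CPM in any group mean. The erythroid sum was at most 5.35 CPM in any library. The part of these cells in the levels of Vegfa and Flt1 was not tested.

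Over the 16 libraries, the genes whose levels followed Vegfa most closely were Capg (Pearson r of log2 CPM 0.943), Ercc1 (0.936), Has3 (0.927), Gm42743 (0.926) and BC100530 (0.92), among 10025 genes averaging 5 CPM or more. Ercc1, a DNA excision repair gene, had group means of 23 and 65.3 CPM without UVB and of 55.2 and 165 CPM after it, controls first. Those nearest to Flt1 were Zdhhc17 (0.927), Kcnip2 (0.926), Ankrd37 (0.922), Tbc1d4 (0.901) and Ly75 (0.897). Ankrd37, one of the HIF targets above, had group means of 20.3, 38.6, 13.5 and 27.4 CPM in unexposed controls, unexposed knockouts, exposed controls and exposed knockouts. Vegfa and Flt1 were not close to each other (r = 0.269, rank 3761 among genes ordered by likeness to Vegfa). These values share the 16 libraries and their group differences, and are a description.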

How the data were processed

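The authors deposited one table of raw counts per Ensembl gene for 16 libraries of 4 groups. FastQC, STAR, HTSeq and DESeq2 are named, without versions, per the submitters' processing notes. For the genome build and the use of strand in counting, the entry is: not given in the sources used here. GENCODE M21 (GRCm38) named 49326 of the 49585 genes and gave positions and exon lengths. Of the 8 genes, Nrp1 and Nrp2 overlap annotated genes, all with 0 counts. Of the counts from 2 to 101, 68.8% were even, and counting intervals cover counting error only. Columns were joined to samples by library name, and groups were taken from the labels.

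Counts were fitted with edgeR 4.0.16 (R 4.3.3): filterByExpr kept 17741 genes, with 99.94% or more of each library's counts, with TMM scaling, quasi-likelihood with robust estimation and 1 mean per group. F tests were two-sided, with Benjamini-Hochberg adjustment over all tested genes and a threshold of 0.05. The common biological coefficient of variation was 0.445. Approximate intervals are 1.96 SE. Folds against a group at 0 use a floor of 3 counts per library. Those against a group with few counts (1 for Tie1, 8 for Kdr) are a ratio of pooled counts with a 95% interval. Ratios of Flt1 or Vegfa to other genes were tested by exact two-sided permutation, adjusted over 3 comparisons. Alternatives were DESeq2 1.42.0, limma 3.58.1 with voom, upper-quartile scaling, no count filter, no robust estimation, only the groups compared, and each library left out in turn. The fit was tested on simulated data. Python 3.11.15 with pandas 2.3.3, scipy 1.17.1, numpy 2.4.6 and matplotlib 3.10.9 made the tables and plots.

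The genes and the 8 pathway and 12 marker lists were chosen with earlier results of these data known. Named were the 8 genes, up to 3 genes per pathway list and comparison with the smallest p (2 genes examined are not reported here), and the 5 genes most correlated with Vegfa and with Flt1 in log2(CPM + 0.5). Other named genes were chosen after their values were seen or show a list's zeros and levels. Promoter sequences are from RefSeq (GRCm38.p6).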

Additional observations from a re-analysis of the deposited data

Results flagged for a closer look

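Of 48 groups of 4 libraries examined (the 8 genes and the ratios to marker genes), 7 held a library whose gap to the nearest other exceeded Dixon's 95% critical share of the group's range, and chance flags about 1 in 20 groups. Kdr was at 0.175 CPM in unexposed control library 1 and at 0 in the other 3 of that group. Pgf was lowest in exposed control library 1, at 0.61 CPM. Tie1 was at 0.0303 CPM (1 count) in unexposed control library 3, with 0 in the others, and highest at 0.896 CPM in exposed knockout library 4. Angptl4 was highest in unexposed control library 2, at 0.612 CPM. The log2 ratio of Flt1 to the summed blood endothelial markers was highest, at 3.28, in unexposed knockout library 1 and lowest, at 1.01, in exposed control library 2.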

How the results depend on the processing

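No paired analysis was possible because the library numbers run on across the groups, so no number is shared between them. DESeq2 called 742 genes between unexposed genotypes (373 with edgeR), 1516 after UVB (830) and 31 for the difference between responses (0), and without a count filter edgeR called 2 for that difference. With upper-quartile scaling the unexposed calls were 180 higher and 136 lower, against 171 and 202, and the largest shift of the median gene was 0.089. Leaving out 1 library gave 134 to 435 unexposed calls (144 and 134 without control library 3 or 4, 225 without control library 2, 148 and 168 without knockout library 1 or 2), 419 to 1356 after UVB (1356 and 529 without control library 2 or 3, and 492, 419 and 520 without knockout library 1, 2 or 3), 5520 to 6501 with UVB in controls, 4625 to 5474 in knockouts, and 0 to 2 for the difference. With 1 library left out, the ratio of Flt1 to endothelial markers ranged over 1.02 to 1.31 after UVB, -0.86 to -0.50 with UVB in controls and -0.38 to -0.15 in knockouts, and that to Kdr over -0.53 to 0.24, -1.03 to -0.22 and -0.72 to 0.27. Over Pecam1, Cdh5 and Emcn alone, a sum made mostly or only of Pecam1, the first ratio was 2.79, -1.87 and -0.02 in the same order. Over mean log2 basal markers, Vegfa between exposed genotypes was 0.38, against -0.06 over their sum. Without a count filter Vegfa (0.72, adjusted p = 0.0573) and Flt1 (-0.77, adjusted p = 0.0663) did not pass with UVB in knockouts. With only the 2 groups compared, Pgf did not pass with UVB in controls (adjusted p = 0.117) and passed in knockouts (adjusted p = 0.00773). Of the values for the named genes and the added ratios, under the changed settings 193 kept direction and call, 4 lost the call, 6 gained it, 3 (Tie1 and Pgf between unexposed genotypes) moved by more than the spread and 1 (Vegfa over basal markers) turned direction, and with a library left out 361 kept both, 14 lost the call, 4 gained it and 5, again of Tie1 and Pgf unexposed, moved. The cause was not tested for any of these changes. Depth limits Kdr, Pgf, Tie1 and the endothelial markers, which rest on few counts.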
